A study of Mus musculus with 8 samples.

Results

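The genes described here are *Kit*, which encodes the receptor tyrosine kinase KIT, and *Kitl*, which encodes its ligand, the KIT ligand or stem cell factor. They were taken by their symbols, 2 of the 45583 gene symbols with deposited counts. Ovaries of juvenile C57/Bl6 mice, 3 weeks old, were sequenced as 4 libraries labelled WT (animals 1118, 1119, 1120 and 1121) and 4 labelled GOAT KO (animals 1139, 1140, 1141 and 1146), 1 library per mouse. The GOAT KO mice lack *Mboat4* in all tissues, the gene of the enzyme that acylates ghrelin, and the study bred them and the WT mice as littermates from heterozygous pairs, with no agent given to either group. The study asked how life without this enzyme changes the developing ovary.

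In the ovary, KIT sits on the oocyte from the primordial follicle onward, and also on theca and interstitial cells, while the granulosa cells around the oocyte make the ligand. Binding of the ligand activates phosphatidylinositol 3-kinase and AKT in the oocyte, which moves the transcription factor FOXO3 out of the nucleus as the primordial follicle starts to grow. The pair is also known for its part in mast cells, melanocytes and blood progenitors. Reads of a whole ovary mix all of these cells, and in such samples fewer cells of a type and less RNA per cell cannot be told apart.

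Each library held between 16147216 and 19481798 counts on genes. In a multidimensional scaling of log2 CPM (read counts relative to library size, with sizes scaled by the TMM method), the first dimension put GOAT KO 1139 at 1.21 and the other 7 libraries between -0.47 and 0.17, and WT 1120 was the nearest to it on that dimension. On the second dimension WT 1118 lay farthest out, at 0.76, with the others between -0.46 and 0.32. The scaling therefore does not single out WT 1120. The study set aside 1 library per group as outliers on such a plot and does not name them. WT 1120 and GOAT KO 1139 were chosen here as the libraries to leave out. Results that rest on these 2 libraries are also given for the other 6. *Mboat4* itself had 1, 1, 1 and 3 counts in the libraries labelled WT and 5, 7, 7 and 8 in those labelled GOAT KO, an order opposite to the labels. Which part of the gene the deletion removes is not given in the sources used here, so these few counts do not check the labels. The study's PCR for this gene in juvenile ovaries was not analysed here. Every direction below follows the labels.

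*Kit* (ENSMUSG00000005672.12) lies on the plus strand of chromosome 5 at chr5:75574916-75656722 of GRCm38, and its main transcript has 21 exons. *Kitl* (ENSMUSG00000019966.18) lies on the plus strand of chromosome 10 at chr10:100015630-100100416, and its transcript with exon 6 has 10 exons, of which the last spans 4399 of the 5768 exon bases. Overlap of other annotated genes with either of them is not reported here. Both transcripts are spliced in alternative ways that change the protein, and the sequences below, from GENCODE transcripts of GRCm38, show what each choice adds. Exon 6 of *Kitl* (chr10:100080857-100080940, 84 bases or 28 codons) encodes the main site at which the ligand is cut from the cell surface, so that the form with it is readily shed and the form without it stays mainly on the membrane. In the sequences of *Kitl*, 20 bases of the exons on either side are in lower case and exon 6 is in capitals.
Kitl exon 6 with flanks: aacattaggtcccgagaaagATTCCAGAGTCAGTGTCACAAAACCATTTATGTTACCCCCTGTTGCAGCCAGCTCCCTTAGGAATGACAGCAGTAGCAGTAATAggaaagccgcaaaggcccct
Kitl exon 5 joined to exon 7: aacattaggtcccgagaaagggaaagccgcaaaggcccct

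Exon 9 of *Kit* can end at either of a pair of donor sites, which give an exon of 194 or 182 bases. The 12 bases between them (chr5:75639147-75639158, 4 codons) add the residues known as GNNK to the part of the receptor just outside the membrane, and the forms with and without them are known to differ in how strongly they signal. In the sequences of *Kit*, the 12 bases are in capitals.
Kit exon 9 end with GNNK: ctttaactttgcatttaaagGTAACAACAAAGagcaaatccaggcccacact
Kit exon 9 end without GNNK: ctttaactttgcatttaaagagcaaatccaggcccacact

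Receptor and ligand were both well expressed and neither was called different between the groups. *Kit* stood at 90.9 ± 10.6 CPM in WT and 87.9 ± 22.0 in GOAT KO (SD, n = 4 each), and *Kitl* at 183.6 ± 33.8 and 201.7 ± 35.6 CPM. A gene was called where edgeR's quasi-likelihood test gave an unadjusted p below 0.05 and a log2 fold change beyond 0.5 in either direction. Both members passed the filter on low counts, and 0 of 2 were called, where 278 of the 16601 genes tested were (1.67%), 159 higher (0.958%) and 119 lower (0.717%) in GOAT KO. By p alone 767 genes (4.62%) passed (9.46% in the 6 libraries without WT 1120 and GOAT KO 1139), and 4 genes (0.0241%) had an adjusted p under 0.05.

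For the receptor, the levels in WT libraries 1118, 1119, 1120 and 1121 were 92.9, 82.1, 83.4 and 105.1 CPM. In GOAT KO libraries 1139, 1140, 1141 and 1146 they were 58.3, 101.1, 84.6 and 107.7 CPM. The groups overlapped, and GOAT KO libraries were both the lowest (1139) and the highest (1146) of all. The log2 fold change of *Kit* was -0.05 (SE 0.162, 95% interval -0.40 to 0.31), with an adjusted p of 0.986. The exact two-sided permutation test of the CPM gave p = 0.857, where 4 against 4 libraries cannot give less than 0.0286. As a ratio the interval runs from 0.755 to 1.24, so changes of that size in either direction could not be told from none. The sign was not stable: leaving out GOAT KO 1139 gave 0.11 (SE 0.105), without WT 1121 it was 0.03 (SE 0.176), and without both WT 1120 and GOAT KO 1139 it was 0.07 (SE 0.102, adjusted p = 0.866).

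For the ligand, WT libraries 1118, 1119, 1120 and 1121 had 163.2, 166.5, 234.0 and 170.6 CPM. GOAT KO libraries 1139, 1140, 1141 and 1146 had 254.0, 186.5, 174.4 and 192.0 CPM. The highest library of each group was WT 1120 and GOAT KO 1139, and the other 3 of each group lay closer together. The log2 fold change of *Kitl* was 0.14 (SE 0.138, 95% interval -0.17 to 0.44), with an adjusted p of 0.983, and the exact permutation p was 0.457. Without WT 1120 and GOAT KO 1139 the value stayed at 0.14 while its SE fell to 0.0572 (95% interval 0.02 to 0.27, adjusted p = 0.501), so that its unadjusted p, unlike that of all 8 libraries, was below 0.05. In those 6 libraries, scaled on their own, *Kitl* lay at 163.5 to 169.8 CPM in WT and at 174.7 to 191.3 in GOAT KO, with no overlap. The exact permutation p was 0.1, the smallest that 3 against 3 can give, and the CPM of 15.7% of all genes did not overlap in these 6 libraries (2.92% in all 8). The change stayed under the 0.5 needed for a call. Leaving out a single library moved it further: the log2 fold change of *Kitl* was 0.01 without GOAT KO 1139 (SE 0.119, adjusted p = 0.997) and 0.27 without WT 1120 (SE 0.111, adjusted p = 0.453), neither of them called.

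**Figure D1:**
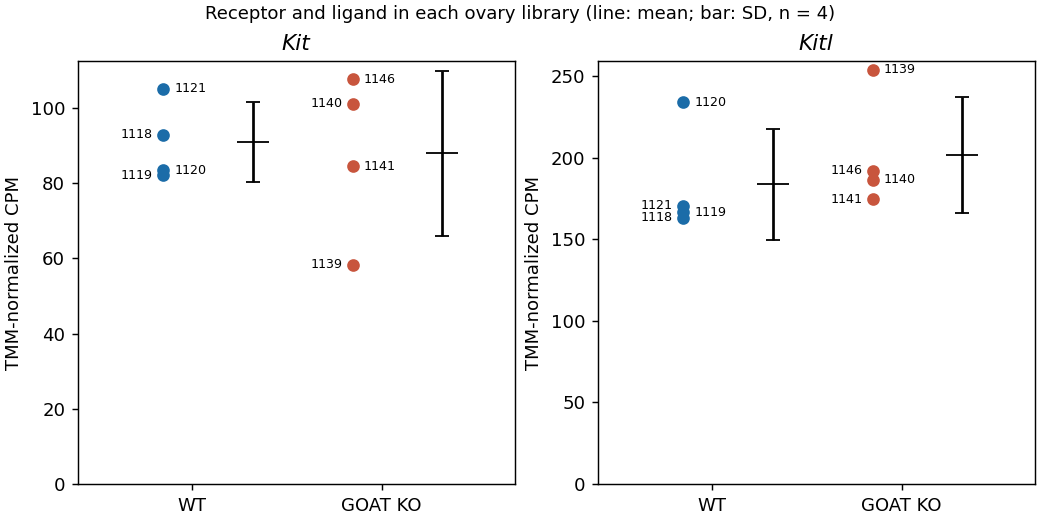
CPM (TMM-normalized, y axis from 0) of *Kit* and *Kitl* in each library, 1 point per mouse with its animal number, beside the mean and SD of each group (n = 4). GOAT KO 1139 was lowest for *Kit* (58.3 CPM) and highest for *Kitl* (254.0 CPM), and WT 1120 was the highest WT library for *Kitl* (234.0 CPM).

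Over all libraries, the spread between mice of a group was larger for the pair than for most genes. Within groups the SD of log2 CPM was 0.304 for *Kit*, larger than for 81.7% of the genes tested, and 0.242 for *Kitl*, larger than for 72.9%, where the median gene had 0.151. The spread of *Kitl* rested largely on WT 1120 and GOAT KO 1139. Its SD was 33.8 CPM in WT and 35.6 in GOAT KO with these libraries, and 3.12 and 8.5 CPM without them. For *Kit* the SD was 10.6 and 22.0 CPM with them, and 11.3 and 11.6 CPM without them. The share of genes with a smaller SD was not computed without these libraries. By mean CPM, *Kitl* ranked 1014th and *Kit* 3172nd of the 16601 genes tested.

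To compare the receptor with its ligand, CPM were divided by the exon length of each gene (CPM per kb). *Kitl* was the higher in 8 of 8 libraries, at 31.8 ± 5.85 CPM per kb in WT and 35.0 ± 6.17 in GOAT KO, against 17.3 ± 2.02 and 16.7 ± 4.19 for *Kit* (SD, n = 4 each). The ligand exceeded the receptor 1.60, 1.85, 2.56 and 1.48 times in WT libraries 1118, 1119, 1120 and 1121. In GOAT KO libraries 1139, 1140, 1141 and 1146 it did so 3.97, 1.68, 1.88 and 1.62 times. GOAT KO 1139 and then WT 1120 had the highest ratios, and the other 6 libraries lay between 1.48 and 1.88. The log2 ratio of *Kit* to *Kitl* counts, which does not depend on library size, was -1.01 ± 0.348 in WT and -1.22 ± 0.607 in GOAT KO, a difference of -0.22 (exact two-sided permutation p = 0.571). Without GOAT KO 1139 the difference was 0.08, and without both libraries it was -0.08 (exact p = 0.5).

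KIT belongs to the class III receptor tyrosine kinases, which share an extracellular part of 5 immunoglobulin-like domains and a split kinase domain. The others are the platelet-derived growth factor receptors *Pdgfra* and *Pdgfrb*, mainly of stroma and theca, the macrophage receptor *Csf1r* and the progenitor receptor *Flt3*. Over the 8 libraries *Pdgfra* had 23.4 ± 2.85 CPM per kb, *Pdgfrb* 20.6 ± 2.88, *Kit* 17.0 ± 3.06, *Csf1r* 3.09 ± 0.581 and *Flt3* 0.0679 ± 0.0278 (SD, n = 8). *Kit* was below *Pdgfra* in 8 of 8 libraries and above *Csf1r* and *Flt3* in 8 of 8, but above *Pdgfrb* in 2 of 8, so that the order of *Kit* and *Pdgfrb* was not fixed. *Flt3* was under the filter on low counts. Of the 4 receptors tested 0 were called, and their median log2 fold change was -0.05, against -0.000349 over all genes tested. With 1 library left out that median ran from -0.15 (without WT 1120) to 0.04 (without WT 1121), and it was -0.15 without both WT 1120 and GOAT KO 1139. In those 6 libraries *Pdgfrb* had a log2 fold change of -0.31 (SE 0.0866, adjusted p = 0.376), against -0.16 (SE 0.111, adjusted p = 0.983) in all 8, and its unadjusted p was below 0.05 but its change under the size needed.

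Among the ligands of these receptors *Kitl* was the most abundant per length, above each of the other 7 in 8 of 8 libraries. Over the 8 libraries it had 33.4 ± 5.82 CPM per kb, followed by *Pdgfc* with 17.0 ± 1.15 and *Pdgfb* with 16.1 ± 2.02, which do not differ beyond their spread. *Pdgfd* had 7.47 ± 0.904, *Il34* and *Csf1*, the ligands of CSF1R, had 4.92 ± 0.954 and 3.89 ± 0.324, *Pdgfa* had 4.08 ± 0.604 and the FLT3 ligand gene *Flt3l* had 1.49 ± 0.333 CPM per kb. Of the 8 ligands 0 were called and the median log2 fold change was -0.02. *Flt3l* came nearest, with a log2 fold change of -0.44 (SE 0.181, adjusted p = 0.983), an unadjusted p below 0.05 but a change under the size needed. It stood at 3.78, 2.33, 3.46 and 3.05 CPM in WT and at 2.33, 2.51, 2.05 and 2.44 in GOAT KO, and the groups overlapped by the value of WT 1119. Without WT 1119 it was called, at -0.56 (SE 0.17, adjusted p = 0.975). Its unadjusted p was no longer below 0.05 without WT 1118 (-0.34, SE 0.182), WT 1120, WT 1121, GOAT KO 1139, GOAT KO 1141 or GOAT KO 1146 in turn, without both WT 1120 and GOAT KO 1139 (-0.39, SE 0.219, adjusted p = 0.589), or with DESeq2 (-0.44, SE 0.228, adjusted p = 0.999).

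**Figure D2:**
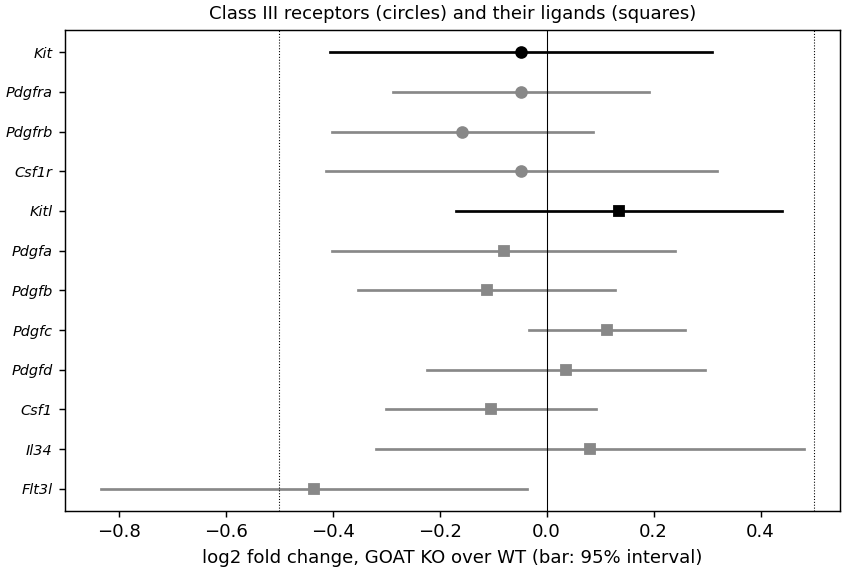
Log2 fold change of GOAT KO over WT (x axis, dot or square, bar 95% interval from edgeR) for the 4 class III receptors tested (circles) and the 8 ligands (squares), *Kit* and *Kitl* in black; dotted lines mark 0.5 in either direction. The intervals of *Kit* (-0.40 to 0.31) and *Kitl* (-0.17 to 0.44) include 0, and *Flt3l*, at -0.44, has the largest change of the 12.

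None of the genes that carry the signal of KIT inside the cell was called. Of 36 such genes (adaptors, SRC family kinases, subunits of phosphatidylinositol 3-kinase, AKT, the RAS to MAP kinase chain and STAT factors) 0 were called, 0 had an unadjusted p under 0.05, and their median log2 fold change was 0.01, with 19 positive and 17 negative. *Foxo3*, the transcription factor that holds primordial follicles at rest, stood at 146.0, 136.6, 144.4 and 132.2 CPM in WT and at 151.9, 129.5, 126.7 and 131.8 in GOAT KO (log2 fold change -0.05, SE 0.068, adjusted p = 0.983). *Pik3r1*, the main regulatory subunit, ranged from 231.5 CPM in WT 1120 to 538.3 CPM in WT 1118, with GOAT KO libraries at 324.5 to 463.8 CPM in between.

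Of 13 genes that damp KIT or cut its ligand, 0 were called and 0 had an unadjusted p under 0.05. A negative sign was held by 10 of the 13, with a median log2 fold change of -0.04, where 49.9% of all genes tested had a positive sign. The 13 genes share the same 8 libraries, so their signs are not independent. *Adam17*, the metalloprotease that sheds KIT and other membrane proteins, had a log2 fold change of -0.03 (SE 0.0488, adjusted p = 0.983). *Mmp9*, a protease that releases the ligand in bone marrow, was low, at 0.878 to 1.92 CPM in WT and 0.814 to 1.28 in GOAT KO (log2 fold change -0.52, SE 0.271, adjusted p = 0.983). Without WT 1120 and GOAT KO 1139 it was called lower (log2 fold change -0.75, SE 0.263, adjusted p = 0.447), 1 of 398 genes called of 16641 tested in those 6 libraries (2.39%).

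Of 6 oocyte factors listed here as upstream of *Kit*, 1 was called, where 278 of the 16601 genes tested were (1.67%). Whether each of them acts on *Kit* was not tested. *Sohlh1*, a germ cell factor needed for *Kit* expression in early oocytes, had 1.36, 2.39, 2.09 and 2.67 CPM in WT. It had 1.97, 3.79, 6.19 and 3.60 CPM in GOAT KO. Of the GOAT KO libraries 3 lay above all WT libraries, while GOAT KO 1139 lay within them. The log2 fold change of *Sohlh1* was 0.87 (SE 0.319, adjusted p = 0.983). The call was lost without GOAT KO 1141 (0.54, SE 0.285) and without WT 1118 (0.72, SE 0.331). It held without GOAT KO 1139 (1.09, SE 0.259, adjusted p = 0.527) and without both WT 1120 and GOAT KO 1139 (1.08, SE 0.282, adjusted p = 0.339). With 1 library left out, 2 of the 6 factors were called without WT 1121 or without GOAT KO 1146, where 302 of 16760 and 309 of 16824 genes were. The other 5 were not called with all 8 libraries, and the median of the list was 0.23, or 0.05 without GOAT KO 1141. *Figla*, which drives zona pellucida genes, had a log2 fold change of 0.46 (SE 0.19, adjusted p = 0.983), under the size needed.

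The cells that carry the pair were traced by markers. Oocyte markers were plain in every library, with a sum over 12 genes of 1235 to 1508 CPM in WT and 1272 to 1502 in GOAT KO, 0 called and a median log2 fold change of 0.04. Granulosa cell markers summed over 10 genes to 5446 to 7363 CPM in WT and 6531 to 7533 in GOAT KO. Of the 10, 8 had a positive sign (49.9% over all genes tested), with a median log2 fold change of 0.27. The gene called among them was *Inhba*, the activin subunit of growing follicles, with 49.6, 70.3, 179.9 and 93.9 CPM in WT and 210.7, 103.5, 200.6 and 245.6 in GOAT KO (log2 fold change 0.95, SE 0.36, adjusted p = 0.983). WT 1120 lay among the GOAT KO libraries. In the 6 libraries without WT 1120 and GOAT KO 1139, *Cyp19a1*, *Fshr*, *Inhba* and *Inhbb* were called higher, 4 of 10, with log2 fold changes of 1.39, 0.68, 1.36 and 0.57 and adjusted p values from 0.144 to 0.422, where 398 of the 16641 genes tested in those libraries were called (2.39%). With all 8 libraries these 4 stood at 0.22 (SE 0.767), 0.47 (SE 0.161), 0.95 (SE 0.36) and 0.42 (SE 0.241), so that the value of *Cyp19a1*, at 65.0 CPM in WT 1120 and 45.2 in GOAT KO 1139 against 5.06 to 31.6 elsewhere, rested most on which libraries were taken. With 1 library left out, 0 of the 10 were called without WT 1118, WT 1119, WT 1121 or GOAT KO 1146, 1 without GOAT KO 1141, 2 without GOAT KO 1139 or GOAT KO 1140, and 4 without WT 1120. Over all genes tested, the number called ran from 231 of 16819 (without WT 1118) to 437 of 16767 (without WT 1120) in these fits.

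**Figure D3:**
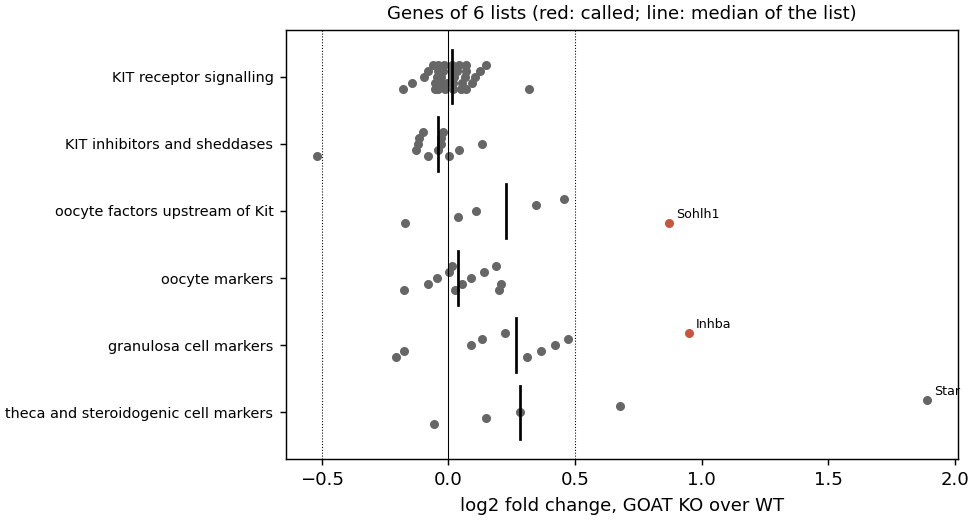
Log2 fold changes of GOAT KO over WT (x axis) for the genes tested in 6 lists, 1 dot per gene, red where called, with the median of each list as a vertical line and dotted lines at 0.5 in either direction. The 36 signalling genes centre on 0.01, and *Sohlh1* (0.87) and *Inhba* (0.95) are the called genes of these lists.

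Of the 5 theca and steroidogenic genes tested (of 6), 0 were called, and in 2 of them WT 1120 or GOAT KO 1139 stood far above the rest. *Star*, which brings cholesterol into mitochondria, stood at 233.5 CPM in GOAT KO 1139 against 8.14 to 31.9 CPM in the other 7 libraries. *Cyp17a1*, the theca enzyme of androgen synthesis, stood at 355.0 CPM in WT 1120 and at 600.8 in GOAT KO 1139 against 42.4 to 137.7 CPM elsewhere. Both libraries are those with the most *Kitl*. Over the list the median log2 fold change came to 0.28, or -0.17 if GOAT KO 1139 was left out, 0.57 if WT 1120 was and 0.29 if both were.

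Markers of other cells that use KIT were low or mostly not called. Over all genes tested 278 of 16601 were called (1.67%), 159 higher (0.958%) and 119 lower (0.717%) in GOAT KO. Of 8 mast cell genes 2 passed the filter and 1 was called, the chymase gene *Cma1*, at 0.620, 0.445, 0.274 and 0.273 CPM in WT and 1.32, 0.794, 0.717 and 0.523 in GOAT KO (log2 fold change 1.06, SE 0.374, adjusted p = 0.983). Several mast cell proteases were highest in GOAT KO 1139, with *Tpsb2* at 2.81 CPM there and 0.220 to 0.768 CPM elsewhere, and the receptor gene *Fcer1a* was at 0 in 7 of 8 libraries. *Cma1* was not called without GOAT KO 1139 (0.76, SE 0.364, adjusted p = 0.97) or without WT 1121 (0.90, SE 0.407, adjusted p = 0.982), nor in the 6 libraries without WT 1120 and GOAT KO 1139 (0.62, SE 0.386, adjusted p = 0.616). Most of the list's summed level, 12.3 to 21.4 CPM in WT and 13.9 to 23.5 in GOAT KO, was the histidine decarboxylase gene *Hdc*, which was highest in WT 1120 (20.1 CPM). The other 7 genes together summed to 1.26 to 1.61 CPM in WT, 1.57 to 2.51 in GOAT KO 1140, 1141 and 1146 and 6.76 in GOAT KO 1139, the library with the least *Kit*. The pigment genes *Tyr*, *Dct*, *Tyrp1* and *Mlana* were at or near 0, and 0 of the 2 melanocyte genes tested were called. Of 5 blood progenitor genes tested *Gata1* was called lower, at 3.35, 2.83, 3.46 and 2.94 CPM in WT and 1.62, 2.02, 2.51 and 2.67 in GOAT KO (log2 fold change -0.51, SE 0.185, adjusted p = 0.983), a call lost without WT 1120 and GOAT KO 1139 (-0.34, SE 0.19, adjusted p = 0.59) and without WT 1118, WT 1120, GOAT KO 1139 or GOAT KO 1140 alone (-0.48 to -0.39). *Cd34* had a log2 fold change of 0.27 (SE 0.104, adjusted p = 0.983), an unadjusted p below 0.05 under the size needed. Of 6 endothelial genes 0 were called. The part of these cells in the levels of *Kit* was not tested.

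The relation between receptor and ligand across mice depended on the libraries taken. Over the 8 libraries Pearson's r of their log2 CPM was -0.644 and Spearman's rho -0.214, and over the 6 without WT 1120 and GOAT KO 1139 they were 0.608 and 0.6. Each is a description of a few points, and a library's size enters both of its values. The likeness of *Kitl* to genes of granulosa and theca cells differed from gene to gene. The median r with the 10 granulosa genes was 0.653, with 8 of 10 positive, and with the 5 theca genes 0.806, with 5 of 5 positive, where the median over all 15458 genes of at least 1 CPM was 0.0414. *Cyp17a1* ranked 20th of those genes (r = 0.959, rho = 0.738), *Inhbb*, the activin B subunit, 243rd (r = 0.874, rho = 0.952) and aromatase *Cyp19a1* 342nd (r = 0.854, rho = 0.881). Without WT 1120 and GOAT KO 1139 these r were 0.641, 0.818 and 0.646, over 6 libraries, and the list medians were 0.647 and 0.641. The granulosa genes of negative r over 8 libraries were the nuclear receptor gene *Nr5a2* (-0.454) and the follistatin gene *Fst* (-0.351), and over the 6 they stood at 0.461 and 0.655. The signs of *Amh*, *Foxl2* and *Lhcgr* turned the other way, from 0.43, 0.684 and 0.427 over 8 libraries to -0.642, -0.244 and -0.0374 over the 6, and *Star* went from 0.854 to 0.154. Within the labels, with group means removed, the medians were 0.665 and 0.783. The 12 oocyte genes had a median r of -0.111 with *Kitl*.

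*Kit* followed none of the marker lists closely. The median r with the 12 oocyte genes was -0.107, with 4 of 12 positive, and for the oocyte growth factor *Gdf9* r was -0.25 (rank 10653 of 15458 genes). With the granulosa genes the median r was -0.426, with the theca genes -0.295 and with the 6 endothelial genes 0.127. *Gdf9* lay between 280.7 and 341.1 CPM over the 8 libraries, while *Kit* ranged from 58.3 to 107.7 CPM.

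**Figure D4:**
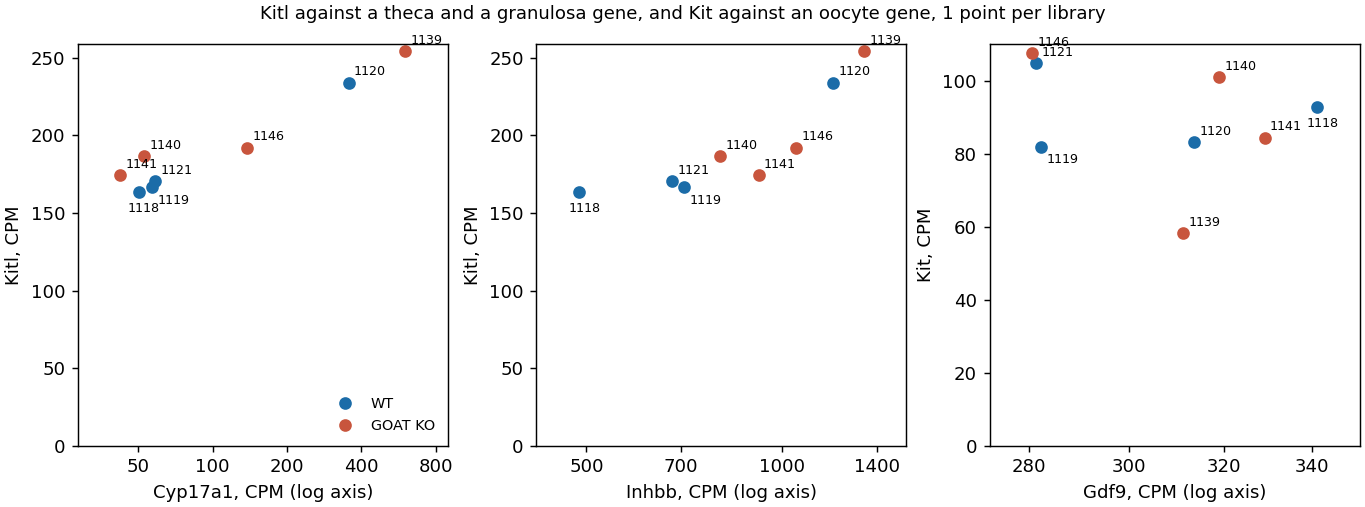
CPM of *Kitl* (y axis from 0) against CPM of *Cyp17a1* and of *Inhbb*, and of *Kit* against *Gdf9* (x axes log-scaled), 1 point per library with its animal number, coloured by label. WT 1120 and GOAT KO 1139 sit at the upper right of both *Kitl* plots (r = 0.959 and 0.874 over 8 libraries, 0.641 and 0.818 without these 2), and *Kit* shows no such order with *Gdf9* (r = -0.25).

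The 5 genes most like *Kitl* over the 8 libraries, by Pearson's r of log2 CPM, were the amino acid transporter gene *Slc38a1* (0.985), *Chp1* (0.984), *Emc8* of the membrane protein insertion complex (0.981), the insulin-like growth factor binding protein gene *Igfbp2* (0.980) and *Cln8* (0.979). All of them were highest in GOAT KO 1139 and next highest in WT 1120, as *Slc38a1* was with 218.6 and 207.5 CPM against 150.3 to 178.3 CPM elsewhere. Without those 2 libraries their r lay between 0.811 and 0.963. The 5 most like *Kit* were the ubiquitin ligase gene *Rnf130* (0.970), the chromatin protein gene *L3mbtl3* (0.961), *Gm26666* (0.958), *Klhl14* (0.956) and *5031434O11Rik* (0.954). All were lowest in GOAT KO 1139, as *Rnf130* was with 72.0 CPM against 78.5 to 88.3 CPM elsewhere. Without GOAT KO 1139 and GOAT KO 1146, the libraries farthest from the median of *Kit*, their r lay between 0.770 and 0.889. None of these 10 genes was called.

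The counts of reads across splice junctions give another view of both genes. Over the annotated introns, *Kit* had 300, 335, 278 and 420 junction reads in WT and 173, 360, 356 and 392 in GOAT KO. *Kitl* had 182, 220, 221 and 214 in WT and 285, 223, 245 and 209 in GOAT KO. GOAT KO 1139 was again lowest for the receptor and highest for the ligand. The log2 ratio of *Kit* to *Kitl* junction reads differed by -0.30 between the groups (exact permutation p = 0.6), by 0.05 without GOAT KO 1139 (exact permutation p = 0.8) and by -0.05 without both WT 1120 and GOAT KO 1139 (exact permutation p = 0.7). A value of 0 in these files is not a measured absence: of 29784 junctions with at least 20 reads in 7 libraries, 1721 (5.78%) were not listed in the other one. Of the 20 introns of *Kit* 14 were listed in all libraries, and of the 9 introns of *Kitl* 6 were. The sums and ratios above were not limited to these introns. GOAT KO 1139 lists no reads for *Kit* exon 15 to exon 16 or exon 18 to exon 19. It alone lists *Kitl* exon 1 to exon 2, with 19 reads. How far such listing enters its sums was not tested.

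Most *Kitl* transcripts kept exon 6, the shed form of the ligand, in both groups. Reads from exon 5 into exon 6, from exon 6 to exon 7 and from exon 5 straight to exon 7 numbered 43, 17 and 7 in WT 1118, 26, 29 and 10 in WT 1119, 23, 17 and 6 in WT 1120 and 19, 21 and 4 in WT 1121. They numbered 46, 25 and 0 in GOAT KO 1139, 28, 31 and 6 in GOAT KO 1140, 32, 27 and 9 in GOAT KO 1141 and 45, 20 and 10 in GOAT KO 1146. The skipping junction was thus listed in 7 of 8 libraries and never had more reads than either junction of exon 6. Inclusion, the mean of the reads into and out of exon 6 over that mean plus the skipping reads, was 81.1%, 73.3%, 76.9% and 83.3% in WT, a mean of 78.7% ± 4.44 (SD, n = 4). In GOAT KO it was 100%, 83.1%, 76.6% and 76.5%, a mean of 84.0% ± 11.1 (SD, n = 4). The difference of 5.38 points (exact two-sided permutation p = 0.543) rested on GOAT KO 1139: without it the difference was 0.0631 points (exact p = 1), and without WT 1120 as well it was -0.518 points (exact p = 0.9).

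Pooled over libraries, the share of reads leaving exon 5 that skipped exon 6 was 19.6% in WT (exact 95% binomial interval 13.3% to 27.2%) and 14.2% in GOAT KO (9.41% to 20.3%), with 27 and 25 skipping reads. Without GOAT KO 1139, where the skipping junction was not listed, the GOAT KO share was 19.2% (25 of 130 reads, 12.8% to 27.1%). These intervals cover counting error only. The transcripts assembled by the authors held a form with exon 6 in all 8 libraries and a form without it in 7, all but GOAT KO 1139. In that library 2 introns of *Kit* listed in the 7 others (exon 15 to exon 16 and exon 18 to exon 19) were also unlisted.

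**Figure D5:**
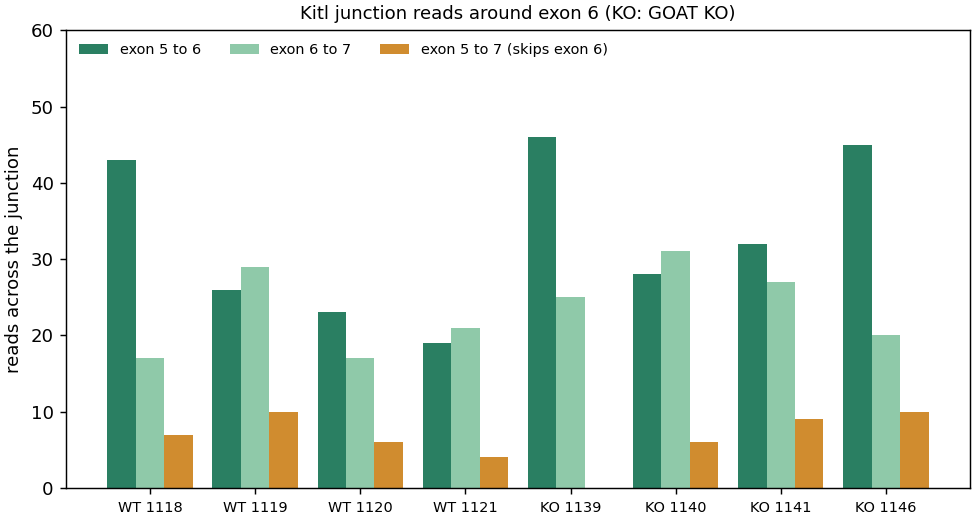
Reads across the *Kitl* junctions into exon 6, out of exon 6 and from exon 5 to exon 7 (y axis, reads) in each library. Skipping reads number 4 to 10 where the junction is listed, and GOAT KO 1139, with 46 and 25 reads on the exon 6 junctions, lists none.

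Both ends of *Kit* exon 9 were used. Reads from the longer end, which includes GNNK, and from the shorter one numbered 6 and 5 in WT 1119, 5 and 5 in WT 1120 and 8 and 3 in WT 1121, and neither was listed in WT 1118. In GOAT KO libraries 1139, 1140, 1141 and 1146 they numbered 7 and 3, 4 and 6, 8 and 7 and 10 and 4. The other 7 libraries had 10 to 15 of these reads each. Over them the mean share of the longer end was 59.1% ± 12 in WT (SD, n = 3) and 58.7% ± 14.9 in GOAT KO (SD, n = 4), a difference of -0.40 points in a test chosen after the values were seen (exact two-sided permutation p = 0.943). The pooled share of the longer end was 59.4% in WT (19 of 32 reads, exact 95% binomial interval 40.6% to 76.3%) and 59.2% in GOAT KO (29 of 49 reads, 44.2% to 73.0%). Reads of 50 bases cannot link this choice to the rest of the transcript.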

How the data were processed

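Reads were aligned by the authors to the mouse genome (mm10, GRCm38) with TopHat2 2.0.14 and counted per known gene; the counting tool and its use of strand are not given in the sources used here. The authors deposited these as whole counts per gene symbol, without normalization, together with counts of reads across splice junctions per library and transcripts assembled with StringTie 1.0.4 (their constant score was not used). Library sizes and depth are those of the gene counts. The filter on low counts was filterByExpr (10 counts in 4 libraries, 15 in all); counts were scaled by TMM and tested with edgeR 4.0.16 in R 4.3.3, all 8 libraries, GOAT KO against WT, with adjusted p by Benjamini-Hochberg over all genes tested. No pair of libraries of a group differed by less than sampling noise (chi-square per gene 3.96 to 24.97). Positions, exon lengths and sequences come from a later GENCODE release of the same build than the authors used. Likeness used log2 CPM with a prior count of 2. The members and gene lists were chosen with earlier results of these data known. Named genes are *Kit*, *Kitl*, *Mboat4*, called list members, the receptor family and its ligands, and the 5 genes most like each member; other list genes were named after their values were seen. Each animal gave 1 library. Alternatives were RLE scaling, no scaling, DESeq2 1.42.0, limma-voom 3.58.1, no filter, 6 libraries and each library left out. The junction ratio without GOAT KO 1139 or without it and WT 1120, the pooled exon 6 skipping without GOAT KO 1139, and the exon 9 test per library, were added after seeing the data. Scripts were tested on simulated data.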

Additional observations from a re-analysis of the deposited data

Results flagged for a closer look

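Of 40 sets of 4 libraries examined for a library far from the other 3 of its group, 5 held one, where chance flags about 1 in 20. *Kitl* in WT 1120 stood at 234.0 CPM against 163.2 to 170.6 CPM in the other WT libraries. The log2 ratio of *Kit* to *Kitl* counts was -2.12 in GOAT KO 1139 against -1.04 to -0.83 in the other GOAT KO libraries. *Pdgfrb* in GOAT KO 1139 stood at 127.7 CPM against 97.8 to 100.7 CPM. *Csf1* in GOAT KO 1141 stood at 20.3 CPM against 17.3 to 17.7 CPM. *Mboat4* in WT 1121 stood at 0.164 CPM, from 3 counts, against 0.0549 to 0.0619 CPM, from 1 count each, in the other WT libraries.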

How the results depend on the processing

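*Kit* and *Kitl* were not called under any of the 14 alternatives run for each. The sign of *Kit* turned, from -0.05 to 0.065 on the log2 scale, without WT 1120 and GOAT KO 1139, and ranged from -0.16 to 0.11 with 1 library left out. *Kitl* ranged from 0.01 to 0.27 with 1 library left out. The difference in the log2 ratio of *Kit* to *Kitl* ranged from -0.38 to 0.085 with 1 library left out (0.055 from junction reads without GOAT KO 1139, chosen after seeing the data), and that in exon 6 inclusion from 0.0631 to 7.91 points, with -0.518 points without both libraries. The number of genes called, 278, was 224 with DESeq2 and 257 with limma-voom, 691 of 27459 genes with no filter on low counts, where more genes are tested, and 231 to 437 with 1 library left out, 437 being without WT 1120. Among the family, uncalled signs turned with 1 library left out for *Pdgfra* (-0.14 to 0.046), *Csf1r* (-0.16 to 0.13), *Pdgfa* (-0.14 to 0.038), *Pdgfd* (-0.067 to 0.12, and -0.045 without both libraries) and *Il34* (-0.051 to 0.18). Of the 5 theca genes, 2 were called without WT 1120 and 1 without GOAT KO 1140, GOAT KO 1141 or GOAT KO 1146 in turn, or with no filter. In these fits, in the same order, 437 of 16767, 319 of 16832, 283 of 16758, 309 of 16824 and 691 of 27459 genes were called. Of the 13 genes that damp KIT, 1 was called without WT 1120, and 3 mast cell genes were called with no filter. The cause was not tested. At 4 libraries a group, the intervals of the members span about 0.3 log2 or more on either side, and *Kit* exon 9 had only 10 to 15 informative reads in each library that listed its junctions. No analysis paired by litter was possible because the litter of each animal is not given in the sources used here.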
